A study of Homo sapiens with 4 samples.

Results

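The apoptosis and death receptor genes described here are the genes of the deposited table whose symbols name a BCL2 family member, a caspase, an inhibitor of apoptosis, a member of the TNF receptor or ligand superfamily, a TRAF or RIP adaptor, an apoptosome or mitochondrial death factor, or a programmed cell death (PDCD) or death-associated (DAP) gene. They number 67 of the 9885 genes in the table and were picked by symbol alone. RNA-seq was done on HeyA8, a human ovarian cancer cell line, and on 3 lines made from it, with a single library for every line. The parental cells are called A8. In the line A8i, ECM1 was silenced by a stably expressed hairpin RNA, brought in by lentivirus and selected with puromycin. From A8i came A8i-A, with an HA-tagged cDNA of the isoform ECM1a, and A8i-B, with that of ECM1b, so that the hairpin is present in 3 of the 4 lines. Per the paper, such re-expressing lines were selected by GFP sorting or by zeocin or hygromycin, and the sources used here do not say which was used for either library. Lines with a scrambled hairpin or an empty vector are not analysed here, so the virus and the drug selection cannot be told apart from the loss or return of ECM1.

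For each gene and library the table gives a whole number of events. The kind of event and the program that counted it are not given in the sources used here, and the numbers are neither read counts nor expression levels. With 1 library per line there is no replicate check, every difference below is one between 2 libraries, and intervals cover counting error only, taking events as independent. Library totals ran from 20535 events in A8i to 24513 in A8, and at least 1 event was listed for 73.7% of all genes in A8i and for 78.9–82.2% in the other libraries. ECM1 itself had 2 events in every library, which gives no check of the silencing. Of 10 markers of ovarian, epithelial or mesenchymal cells, 6 were in the table, among them PAX8 and KRT8 with events in every library and EPCAM at 0 in all, while none of 5 markers of blood or endothelial cells was in it. These numbers do not measure how strongly a marker is expressed.

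Programmed cell death by apoptosis runs through a pair of routes. In the mitochondrial route, BAX and BAK1 permeabilize the outer membrane, a step that BCL2, BCL2L1 and MCL1 restrain and that BH3-only proteins such as BID, BAD, BMF and BCL2L11 promote, and released factors then activate CASP9 on APAF1. In the receptor route, FAS, TNFRSF1A and TNFRSF10B recruit adaptors that activate CASP8, which CFLAR holds back. Both routes end at executioner caspases, and XIAP and other inhibitors of apoptosis (IAPs) block caspases or the signals that lead to them. Many of these genes are known to make proteins of opposite effect by alternative splicing, of which the short and long forms of BCL2L1 and the soluble and membrane-bound forms of FAS are textbook cases.

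For several of the members with the most events or the widest spread between libraries, the annotation lists exons that some coding transcripts include and others skip. Below are 6 such exons of 5 members, read from GRCh37 with the GENCODE v44 annotation lifted to it. Exon bases are in capitals and the 20 intron bases on either side are in lower case, 5′ to 3′ on the gene's strand. They are shown because BIRC5, BCL2L13, FAS, CASP8 and TNFRSF25 are the members on which the results below turn. The table does not say where in a gene an event lies, so none of these exons can be tied to a listed event. All of the introns end in AG before the exon and begin with GT after it.
BIRC5, 118 nt (chr17:76212725-76212882, forward strand): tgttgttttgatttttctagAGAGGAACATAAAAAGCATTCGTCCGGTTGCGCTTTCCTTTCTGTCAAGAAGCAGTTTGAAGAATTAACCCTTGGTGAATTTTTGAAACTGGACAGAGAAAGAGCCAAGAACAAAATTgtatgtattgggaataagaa
FAS, 63 nt (chr10:90770490-90770592, forward strand): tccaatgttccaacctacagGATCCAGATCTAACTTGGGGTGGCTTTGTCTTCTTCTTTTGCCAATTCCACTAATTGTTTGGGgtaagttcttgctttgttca
BCL2L13, 70 nt (chr22:18178887-18178996, forward strand): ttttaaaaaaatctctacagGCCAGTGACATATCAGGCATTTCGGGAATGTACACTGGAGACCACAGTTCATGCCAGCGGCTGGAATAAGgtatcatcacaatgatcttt
BCL2L13, 157 nt (chr22:18171732-18171928, forward strand): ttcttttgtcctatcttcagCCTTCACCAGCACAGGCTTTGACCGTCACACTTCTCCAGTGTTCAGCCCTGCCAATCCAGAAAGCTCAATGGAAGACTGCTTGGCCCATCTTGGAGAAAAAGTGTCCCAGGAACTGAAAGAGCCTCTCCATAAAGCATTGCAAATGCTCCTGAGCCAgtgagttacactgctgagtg
CASP8, 45 nt (chr2:202137601-202137685, forward strand): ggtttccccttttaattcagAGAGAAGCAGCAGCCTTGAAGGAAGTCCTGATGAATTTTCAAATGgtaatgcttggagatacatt
TNFRSF25, 135 nt (chr1:6525128-6525302, reverse strand): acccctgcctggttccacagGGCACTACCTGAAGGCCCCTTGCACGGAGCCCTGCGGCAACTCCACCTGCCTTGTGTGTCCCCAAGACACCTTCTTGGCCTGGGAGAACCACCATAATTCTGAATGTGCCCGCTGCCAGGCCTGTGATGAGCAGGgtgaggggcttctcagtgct

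These exons differ in what leaving them out does to the reading frame. The exons of FAS (63 nt), CASP8 (45 nt) and TNFRSF25 (135 nt) are whole numbers of codons, 21, 15 and 45. The FAS exon encodes the membrane-spanning part of the receptor, and 1 annotated coding transcript skips it against 3 that include it. The CASP8 exon is included by 7 annotated coding transcripts and skipped by 8. In contrast, the exon of BIRC5 (118 nt) and the 70-nt and 157-nt exons of BCL2L13 each leave 1 base past a whole number of codons, so that skipping any of them alone shifts the frame. Each of the BCL2L13 exons is skipped by 3 annotated coding transcripts.

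Summed over the 67 members, A8 held 151 events, A8i 142, A8i-A 153 and A8i-B 177. The exact 95% Poisson intervals of these sums, 128–177, 120–167, 130–179 and 152–205, overlap for every pair. The members' sum in A8i was 94.0% of that in A8 (95% exact Clopper-Pearson interval, 74.3–119%), beside 83.8% over all genes. The A8i-A sum came to 108% of that of A8i (85.2–136%), beside 110.5% over all genes, and the A8i-B sum to 125% (99.4–157%), beside 118.0%. The A8i-A sum was 86.4% of the A8i-B sum (69.2–108%), beside 93.6%. All 4 member intervals include 100%, and all include the value over all genes, so a difference of the members as a whole was not detectable at these numbers. Scaling each library to the same total put A8i above A8 (112%) and A8i-A slightly below A8i (97.5%), and the sums therefore fix no direction for those pairs.

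At least 1 event was listed for 56 members in A8 and 48 in A8i, and for 52 in A8i-A and 58 in A8i-B, or 83.6%, 71.6%, 77.6% and 86.6% of them. The corresponding shares of all genes were 82.2%, 73.7%, 78.9% and 81.6%. Events were concentrated in few members: the 10 richest held 305 of the 623 events of the 4 libraries (49.0%), while 26 members had at most 4 events in total. An event in all 4 libraries was listed for 39 members (58.2%, beside 60.6% of all genes), and DAPK3, a death-associated kinase, was the only one in the table at 0 throughout (1.69% of all genes were).

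The richest member was TNFRSF25 (ENSG00000215788; chromosome 1, 6520846 to 6526235, reverse strand), a death receptor found mainly on lymphocytes and long known for its many splice forms. It was listed with 10 events in A8 and 12 in A8i, and 12 in A8i-A and 14 in A8i-B. It was lowest in A8 and highest in A8i-B in these numbers, which are not scaled to the library totals. Among the richest were also PDCD6 with 11, 11, 11 and 9 events in the same order of libraries, PDCD10 with 8, 8, 9 and 8, and DAP3 with 7, 8, 10 and 8. These last 3 encode a calcium-binding adaptor, a scaffold of kinase signalling in vessels and a protein of the mitochondrial ribosome, so that their symbols but not their main roles belong to apoptosis. With the other members of that kind they held 164 events, 26.3% of the members' total. Leaving out the 14 members with other main roles, the readthrough of TNFSF12 and TNFSF13 and the antisense RNA kept 51 members, and their sum in A8i was 91.7% of that in A8.

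The anti-apoptotic BCL2 proteins were at the same number in every library. BCL2L1 (Bcl-x), MCL1 and BCL2A1 were each listed with 1 event in all 4 libraries, while BCL2 itself and BCL2L2 were not among the genes of the table. MCL1 shares its locus with 3 other annotated genes, of which ADAMTSL4 is in the table too, and if strand was not used in the counting their events cannot be told apart.

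The 7 pro-apoptotic BCL2 genes held 23 events in A8 and 11 in A8i, and 17 in A8i-A and 19 in A8i-B. The A8i sum was 47.8% of the A8 sum (21.0–102%), an interval that reaches 100% and includes the 83.8% of all genes. Scaled to the same library total, the share was 57.1%. BOK (chromosome 2, 242490839 to 242513546, forward strand), which can permeabilize mitochondria like BAX, was listed with 5 events in A8 and 0 in A8i, with 3 in A8i-A and 1 in A8i-B. BCL2L11 (Bim), a BH3-only protein with many known splice forms, had 3 events in A8 and 0 in A8i, and 0 in A8i-A and 2 in A8i-B. BMF, a BH3-only protein that senses loss of attachment, had 2 events in A8 and 0 in A8i, and 2 in A8i-A and 2 in A8i-B.
A8i was thus at 0 for these 3 genes, and so it was for BAK1, which had 1, 0, 0 and 1 events. The abundant members of the group differed by at most 1 event between libraries. BAX, the main pore-forming effector, had 5, 5, 6 and 5 events, and BID, which links the receptor route to mitochondria, had 6, 5, 5 and 6. BAD had 1 event in 3 libraries and 2 in A8i-B. Without BOK, A8i held 61.1% of the A8 events of the group (26.1–137%), so the gap narrows by leaving out this gene but keeps its side. BOK overlaps its antisense gene BOK-AS1, which is also in the table.

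The largest difference of any member between 2 libraries was that of BCL2L13 (Bcl-rambo; ENSG00000099968; chromosome 22, 18111621 to 18213621, forward strand), an outer mitochondrial membrane protein known for a part in mitophagy as well as in cell death. It was listed with 3 events in A8 and 12 in A8i, with 3 in A8i-A and 14 in A8i-B. The lines that express ECM1a per the paper, A8 from its own gene and A8i-A from the cDNA, had the same number, and A8i and A8i-B were both far above them. The ratio was 4.0 for A8i over A8 (exact interval, 1.08–22.1), 0.25 for A8i-A over A8i (0.0453–0.926) and 0.214 for A8i-A over A8i-B (0.0395–0.768). Among the ratios of single members computed here these are the 3 whose intervals leave out 1, without an allowance for the number of members. Events that share an exon are not independent, which the intervals do not take into account. BCL2L12, its neighbour in name and an inhibitor of caspases, showed another order, with 4, 4, 7 and 7 events, and it overlaps IRF3 of the other strand, which is in the table. Without BCL2L13 the members' sum in A8i was 87.8% of that in A8.

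The 5 inhibitors of apoptosis had their lowest sum in A8i, with 19 events in A8 and 7 in A8i, and 18 in A8i-A and 14 in A8i-B. BIRC5 (survivin; ENSG00000089685; chromosome 17, 76210267 to 76221717, forward strand), an IAP that also acts in cell division, had 11 events in A8 and 5 in A8i, and 11 in A8i-A and 8 in A8i-B. XIAP, the most direct caspase inhibitor, had 2, 1, 4 and 3. BIRC2 and BIRC3, which act in TNF receptor complexes and lie near each other on chromosome 11, had 1, 0, 1 and 1 and 2, 0, 1 and 1.
All 5 members had fewer events in A8i than in A8, beside 38.5% of all genes. The fifth was BIRC6, a giant ubiquitin ligase, with 3, 1, 1 and 1. Apart from BIRC5, the members differed by 1 or 2 events between A8 and A8i. The group's A8i sum was 36.8% of the A8 sum (13.1–91.5%), an interval that leaves out 100%, with no allowance for the number of groups looked at, but includes the 83.8% of all genes. A8i-A held 257% of the A8i sum (102–728%), an interval that includes the 110.5% of all genes. For A8i-B, with 14 events against 7, the interval was 75.5–586%, which includes the 118.0% of all genes. All 3 kept their direction when scaled to the same library total. BIRC5 carries much of the sums. Without it the group had 2 events in A8i against 8 in A8, a lower share of 25% whose interval, 2.59–125%, includes 100%. A8i-A then held 350% of the A8i events, with 7 against 2, and that interval, 66.6–3453%, includes 100% as well.

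**Figure D1:**
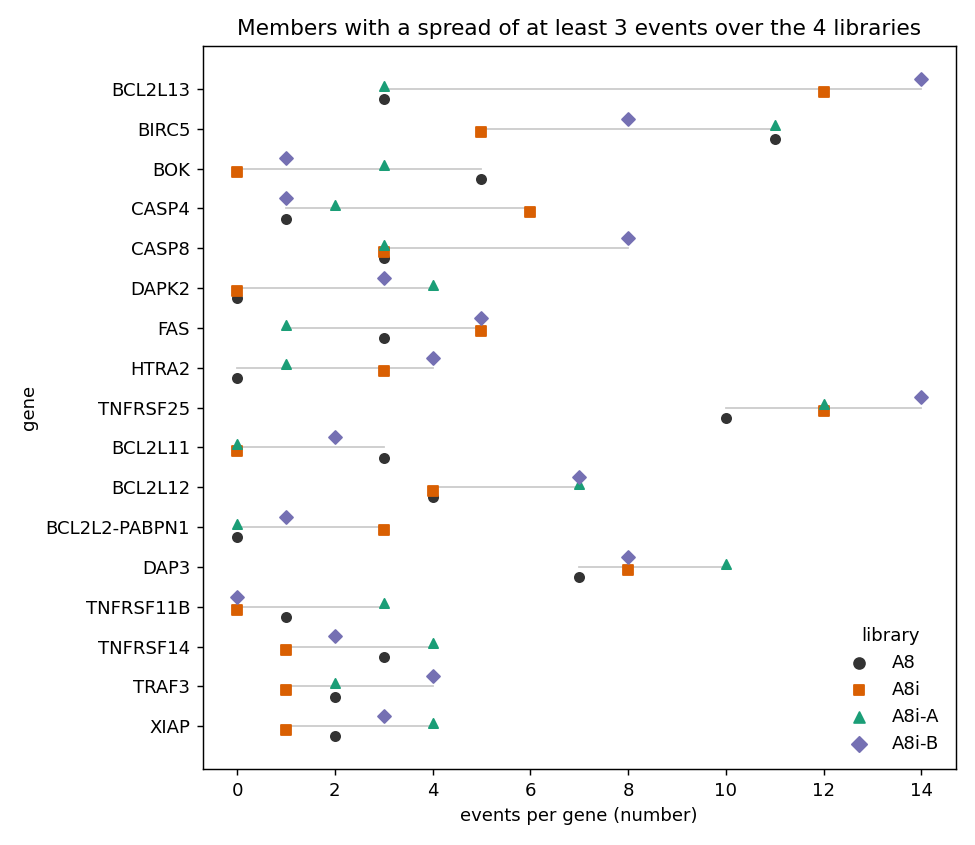
Events per gene (number, horizontal axis) of the members whose highest and lowest library differ by at least 3 events (vertical axis), with 1 point for each library and no replicates. BCL2L13 has 3 events in A8 and A8i-A against 12 and 14 in A8i and A8i-B, whereas BIRC5 is lowest in A8i at 5.

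The 9 caspase genes held 13 events in A8 and 18 in A8i, with 14 in A8i-A and 22 in A8i-B. Between A8 and A8i only 1 of them, CASP4, differed, and the other 8 had equal numbers. CASP8, the initiator of the receptor route, had 3 events in A8 and 3 in A8i, and 3 in A8i-A and 8 in A8i-B. CASP4, an inflammatory caspase that senses bacterial lipopolysaccharide, had 1 event in A8 and 6 in A8i, and 2 in A8i-A and 1 in A8i-B. The other inflammatory caspase, CASP1, had 1, 1, 2 and 3.
CASP8 therefore stood apart in A8i-B and CASP4 in A8i, each in that library alone. The ratio of A8i-B to A8i was 2.67 for CASP8 (0.64–15.6), and that of A8i to A8 was 6.0 for CASP4 (0.728–276), so that counting error covers both. CASP6, an executioner, had 1, 1, 0 and 1. The initiator CASP2 had 2, 2, 0 and 1 events, CASP10 had 0, 0, 1 and 2, and CASP9, which the apoptosome activates, had 0, 0, 1 and 0. CFLAR, CASP10 and CASP8 lie in this order on chromosome 2, from 201980877 to 202226559. Without CASP8 the caspases held 14 events in A8i-B against 15 in A8i, which turns the order of that pair.

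Among the other factors of the mitochondrial route, HTRA2, a protease that leaves mitochondria and removes IAPs, had 0 events in A8 and 3 in A8i, with 1 in A8i-A and 4 in A8i-B. The ratio of A8i-A to A8i-B was 0.25 (0.00508–2.53). HTRA2 overlaps AUP1 and LOXL3 on the other strand, and both are in the table. DIABLO (Smac), which acts on IAPs in a like manner, had 3 events in every library. APAF1, the core of the apoptosome, had 1, 2, 1 and 2 events, and AIFM2 had 1, 1, 2 and 1.

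The death receptors besides TNFRSF25 held fewer events. FAS (ENSG00000026103; chromosome 10, 90750414 to 90775542, forward strand) had 3 events in A8 and 5 in A8i, and 1 in A8i-A and 5 in A8i-B. TNFRSF1A, the main TNF receptor, had 4, 3, 3 and 3, and TNFRSF10B, a TRAIL receptor, had 2 in each library. FAS was thus lowest in A8i-A, at a ratio of 0.2 to either A8i or A8i-B (0.00423–1.79). The gene overlaps ACTA2 on the other strand, which is in the table. Without TNFRSF25, the receptors held 9, 10, 6 and 10 events. TNFRSF11B (osteoprotegerin), a soluble decoy receptor, had 1 event in A8 and 0 in A8i, and 3 in A8i-A and 0 in A8i-B. TNFRSF14, a receptor of lymphocyte costimulation that is also found on epithelia, had 3, 1, 4 and 2, and TNFRSF12A, the receptor of TNFSF12, had 1, 1, 2 and 1.

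The ligands gave almost no events. TNFSF12 had 1 event in each library, TNFSF13 had 1, 1, 0 and 0, and TNFSF13B and the TNFSF12-TNFSF13 readthrough had their single event in A8i-A. The readthrough shares its exons with both genes whose names it joins, and their events cannot be told apart in these numbers.

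Adaptors and kinases downstream of the receptors were low as well. CFLAR (c-FLIP), whose long and short splice forms both restrain CASP8, had 1 event in A8 and 2 in A8i, with 0 in A8i-A and 2 in A8i-B. RIPK2 had 2, 1, 1 and 2, and TRADD, the adaptor of TNFRSF1A, had its single event in A8. FADD, RIPK1 and TRAF2 were not among the genes of the table. Of the TRAF adaptors, TRAF3 had 2, 1, 2 and 4 events, TRAF4 had 3, 4, 4 and 4, and TRAF5 had 2, 0, 2 and 1. TRAF7 had 1 in each library and TRAF6 a single event, in A8i. DAPK2, a calmodulin-dependent death-associated kinase, had 0 events in A8 and 0 in A8i, and 4 in A8i-A and 3 in A8i-B. It was at 0 in both lines without a cDNA and listed in both lines with one. DAPK1 had 1, 0, 0 and 1.

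The remaining members match by symbol and have other main roles. PDCD4, an inhibitor of translation, had 4, 3, 3 and 3 events. PDCD6IP (ALIX), which acts in membrane budding, had 2, 1, 1 and 3. BCL2L2-PABPN1, a readthrough of neighbouring genes, had 0 events in A8 and 3 in A8i, and 0 in A8i-A and 1 in A8i-B. The other members of this kind had from 0 to 2 events in every library, namely PDCD2, PDCD2L, PDCD5, PDCD7, PDCD11, PDCD1LG2, CASP8AP2 and TRAF3IP2. The antisense gene TRAF3IP2-AS1 had 2 events in A8 and 0 elsewhere.

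**Figure D2:**
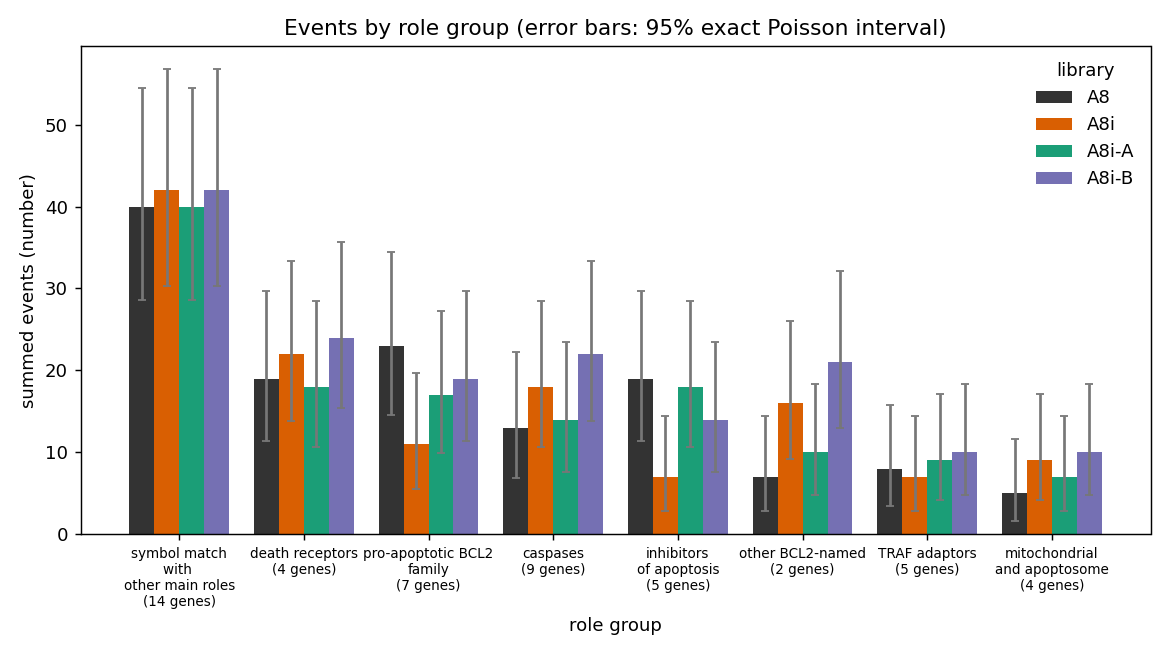
Summed events (number, vertical axis) of the 8 role groups with the most events, in each of the 4 libraries, with 95% exact Poisson intervals as error bars. The inhibitors of apoptosis hold 7 events in A8i against 19 in A8 and the pro-apoptotic BCL2 genes 11 against 23, and the error bars of the libraries overlap in every group.

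A member was counted as apart between 2 libraries where the ratio of (events + 1) was at least 2 in either direction, a scale on which 1 event against 0 just passes. In A8i vs. A8, 7 members were higher (10.4%, beside 8.62% of all genes) and 16 lower (23.9%, beside 20.2%). When A8i-A was set against A8i, 15 were higher (22.4%, beside 18.1%) and 12 lower (17.9%, beside 11.1%). For A8i-B vs. A8i the counts were 17 higher (25.4%, beside 20.4%) and 4 lower (5.97%, beside 9.21%). For A8i-A vs. A8i-B they were 5 higher (7.46%, beside 11.7%) and 15 lower (22.4%, beside 16.2%). The members' shares were within 7 percentage points of those of all genes, and the median log2 ratio was 0 for members and for all genes in every pair. The first 3 pairs share the A8i library, and the last shares a library with each of 2 others.

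Many of these calls rest on a single event, over all genes as among the members. Over all genes, 996 of the 2000 lower in A8i than in A8 had 1 event against 0. The same held for 961 of the 2016 higher in A8i-B than in A8i. Of the 16 members lower in A8i than in A8, 6 had 1 event against 0, and so did 8 of the 17 that were higher in A8i-B than in A8i. Beyond them, the members lower in A8i than in A8 were BCL2L11, BIRC3, BIRC5, BIRC6, BMF, BOK, PDCD11, TNFRSF14, TRAF3IP2-AS1 and TRAF5, and the higher ones were BCL2L13, BCL2L2-PABPN1, CASP4, HTRA2 and PDCD5. Each library was also scaled to the same total, a setting for which shares of all genes are not given here. The counts then became 7 higher and 7 lower for A8i vs. A8. Of the 9 lower members that no longer passed there, 6 had 1 event against 0 and the other 3 were BIRC5, BIRC6 and TNFRSF14. For A8i-A vs. A8i they were then 14 higher and 12 lower, for A8i-B vs. A8i 5 and 4, and for A8i-A vs. A8i-B 5 and 6. CASP1, CASP8, PDCD6IP and XIAP were among the 12 members no longer higher in A8i-B than in A8i, the other 8 having 1 event against 0. In every pair, the higher and lower members were thus nearly even in number under scaling. Part of this comes from the rule, since scaling removed calls of 1 event against 0 from 1 side only. These were 6 lower members in A8i vs. A8, 8 higher in A8i-B vs. A8i and 8 lower in A8i-A vs. A8i-B. The 2, 2 and 3 such calls on the other side of these pairs all still passed. A balance of higher and lower members can therefore not be read from the scaled counts.

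**Figure D3:**
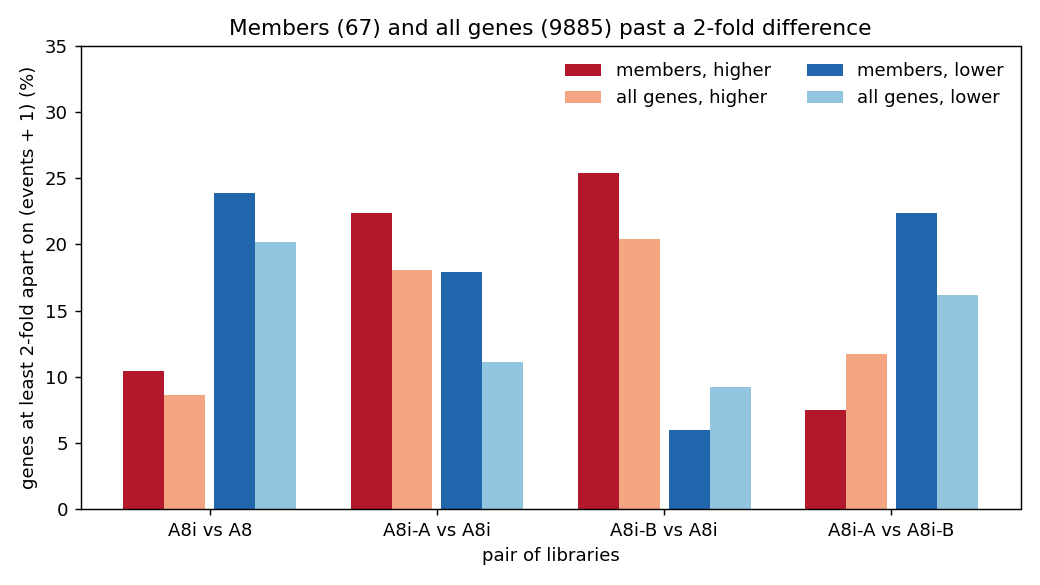
Share of genes (%, vertical axis) whose (events + 1) differ at least 2-fold between the libraries of each pair, for the 67 members and for all 9885 genes, with no replicates and no error bars. The members' share of higher genes in A8i vs. A8 is 10.4% beside 8.62% of all genes, and the members lie within 7 percentage points of all genes in every pair and direction.

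The lines with ECM1a (A8 and A8i-A) can also be set apart from the others (A8i and A8i-B), a grouping looked at after the values had been seen. Both ECM1a lines were above both others for 5 members (7.46%, beside 7.45% of all genes), namely BIRC5, BOK, TNFRSF11B, TNFRSF14 and TRAF5. Both were below the others for 8 (11.9%, beside 4.79%), namely APAF1, BCL2L13, BCL2L2-PABPN1, CFLAR, FAS, HTRA2, PDCD1LG2 and PDCD5. The gap between the groups was 9 events for BCL2L13 and 1 or 2 events for the other 7. With 2 libraries on either side that are not replicates, no test was made.

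The same number in all 4 libraries was listed for 9 members with events (13.4%, beside 13.6% of all genes), among them BCL2A1, BCL2L1, DIABLO, MCL1, PDCD7, TNFRSF10B, TNFSF12 and TRAF7. A spread of at least 4 events was seen for another 9 (13.4%, beside 13.3%), which were BCL2L13, BIRC5, BOK, CASP4, CASP8, DAPK2, FAS, HTRA2 and TNFRSF25. Both shares were close to those of all genes.

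A single library stood at least 2 events apart from each of the others for few members, again by a pattern chosen after seeing the values. A8 was above the rest for BIRC6, BOK and TRAF3IP2-AS1 (3 members, beside 5.58% of all genes) and below it for TNFRSF25 (1 member, beside 1.4%). A8i was above the rest for CASP4 and BCL2L2-PABPN1 (2 members, beside 2.47%) and below it for BIRC5 and BMF (2 members, beside 4.09%). A8i-A was the highest by this measure for DAP3 and TNFRSF11B (2 members, beside 3.94%) and the lowest for FAS (1 member, beside 2.11%). A8i-B was the highest for BCL2L13, CASP8, TNFRSF25 and TRAF3 (4 members, beside 5.51%) and the lowest for PDCD6 (1 member, beside 1.53%). As shares of the 67 members, these counts ran from 1.49% to 5.97%. The event numbers behind them are not scaled, and over all genes A8i-B held 118.0% of the A8i events. Under scaling, BCL2L13 was no longer higher in A8i-B than in A8i.

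Other genes of the pathway, outside the symbols used, were laid out in 4 lists of 73 genes, of which 50 are in the table. They held 168 events in A8 and 158 in A8i, with 171 in A8i-A and 190 in A8i-B, so that A8i was lowest and A8i-B highest, as for the members. Over all genes A8i was lowest too, while A8 was highest. By the same 2-fold rule, 4 of the 50 were higher in A8i than in A8 (8%, beside 8.62% of all genes) and 3 lower (6%, beside 20.2%). In A8i-A, 6 were higher than in A8i (12%, beside 18.1%) and 6 lower (12%, beside 11.1%). Relative to A8i, A8i-B had 5 higher (10%, beside 20.4%) and 2 lower (4%, beside 9.21%). A8i-A relative to A8i-B had 5 higher (10%, beside 11.7%) and 6 lower (12%, beside 16.2%). Of the TNF superfamily, 5 of 15 genes were in the table, and EDA2R, a receptor of ectodysplasin, had 2 events in A8 and 5 in A8i, and 7 in A8i-A and 1 in A8i-B. CD40 and LTBR had 3, 4, 4 and 4 and 5, 4, 5 and 5.
Of the mitochondrial list (17 of 24), MDM2, the ubiquitin ligase of p53, had 6, 3, 1 and 6 events. PIDD1, a death-domain scaffold for CASP2, had 10, 15, 12 and 14, and BAG6 had 9, 7, 10 and 11. In the list of receptor complexes and NF-κB (20 of 23), RBCK1 had 15, 11, 15 and 15, MADD, a death-domain adaptor whose splice forms are known to differ in their effect on survival, had 12, 8, 10 and 12, and DAXX had 3, 4, 0 and 2.
MADD and RBCK1 were lowest in A8i, like BIRC5 among the members and like the total over all genes. PIDD1 and DAXX, in contrast, were highest in A8i. SHARPIN, which forms a ubiquitin ligase complex with RBCK1, had 4, 1, 4 and 1, and DFFB, the nuclease that cuts DNA in apoptosis, had the same numbers. Among the caspase substrates (8 of 11), ACIN1 had 7, 6, 6 and 10 events and SPTAN1 4, 2, 4 and 5. SHARPIN was named after its values had been seen.

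How many events a member had went with how many skipped exons are annotated for it. All 67 members were found in the annotation by Ensembl identifier, on 21 chromosomes, and 66 of them are protein-coding. They had a median of 11 annotated transcripts and 2 skipped exons, beside 9 and 2 over the 9818 genes of the table that were found. An exon was counted as skipped where another transcript of the gene joins its neighbours. The 31 members with 3 or more such exons had a median of 2.5 events per library and the 25 with 1 to 2 had 1.0, with 2.5 and 1.25 for all genes of these kinds. The 11 members with none had a median of 1.25, beside 0.75. Across genes, which are not independent replicates and share the libraries and the annotation, Spearman's rho between skipped exons and mean events was 0.575 over the members and 0.434 over all genes. With transcripts in place of skipped exons it was 0.530 and 0.466, and with the length of the longest transcript 0.0697 and 0.0167. TNFRSF25 stood above the interquartile range of all genes with as many skipped exons, at a mean of 12.0 events with 4 annotated, and DAP3, with 9, had a mean of 8.25. At the other end, TNFRSF14 and BOK had no annotated skipped exon and were listed with events in 4 and 3 libraries.

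**Figure D4:**
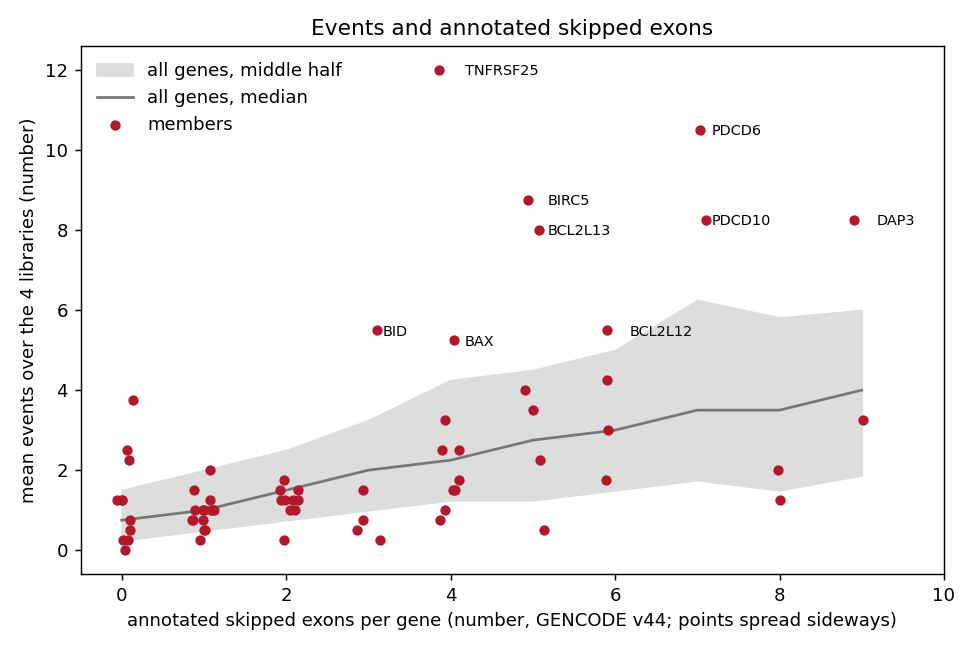
Mean events over the 4 libraries (number, vertical axis) against the number of skipped exons annotated in GENCODE v44 (horizontal axis) for the 67 members as points, with the median of all genes as a line and their interquartile range as a band. TNFRSF25 lies above the band at a mean of 12.0 events with 4 skipped exons.

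Overlap with other genes bears on several of these numbers. Of the 67 members, 42 overlap another annotated protein-coding gene or long noncoding RNA, and 16 overlap one that is in the table itself. Whether the counting used strand is not given in the sources used here, so for such members the events of both genes cannot be told apart. BCL2L13, BIRC5 and XIAP differ in this respect, since the first 2 overlap no other such gene and the last overlaps its antisense gene.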

How the data were processed

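RNA-seq of 4 lines, with 1 library each, was analysed as deposited. Per the paper, the authors trimmed paired-end reads with Trim Galore, checked them with FastQC, mapped them to hg19 with TopHat and estimated FPKM with Cufflinks 2.2.1. The submitters' processing notes name the mouse build GRCm38, whereas the table holds human Ensembl identifiers. The deposited values are counts, whole numbers of events per gene from 0 to 32 that show no scaling to depth. The kind of event, its filters and the reads behind each library are not given in the sources used here.

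Library columns were matched to samples by their names, and 0 columns of per-sample values were left unused. Members were taken by symbol. The members, role groups and pathway lists were chosen with earlier results of these data known. Members named singly were the 10 with the most events, up to 10 per pair of libraries with the largest difference among those at least 2-fold apart, a panel of 29 core genes of which 23 are in the table, and members missing from some libraries; the others named were added after their values were seen, to account for the members, and 2 members are not reported singly here. Ratios of sums and of single genes have 95% exact Clopper-Pearson intervals, given the events of both libraries together, and sums have exact Poisson intervals. The 2-fold rule used a pseudocount of 1. Simulated independent counts, without the unequal library totals seen here, checked only that larger changes were called at least as often. The rule's rate of false calls is not given here. No test of conditions was made. Alternatives were scaling to the library total, a pseudocount of 0.5, filters on events, other member sets and a difference of at least 2 events. Exons, overlaps and coordinates (1-based) come from GRCh37 with GENCODE v44, which matched 99.3% of the 9885 identifiers. Python 3.11.15, numpy 2.4.6, pandas 2.3.3, scipy 1.17.1 and matplotlib 3.10.9 were used.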

Additional observations from a re-analysis of the deposited data

Results flagged for a closer look

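The lines that regained an isoform lay on opposite sides of A8i, each by at least 2 events, for 1 of the 67 members and 3 of the 50 other pathway genes, beside 0.941% of all genes (93 genes). BCL2L13 had 12 events in A8i against 3 in A8i-A and 14 in A8i-B, so that the difference of A8i-A from A8i less that of A8i-B was -11 events. EDA2R had 5, 7 and 1 in the same order, a difference of 6 events. For MDM2, with 3, 1 and 6, it was -5 events, and for RELA, with 6, 4 and 8, it was -4 events. These numbers are not scaled, and over all genes A8i-B held 118.0% of the A8i events. For BCL2L13 and RELA, A8i-B was above A8i by only 2 events. Scaled to the same library total, the log2 ratio of (events + 1) of BCL2L13 in A8i-A was -1.84 to A8i and -1.82 to A8i-B. A8i-B was therefore no longer above A8i for BCL2L13. For RELA, whether this side holds under scaling was not checked. The differences were not tested, since each line has 1 library.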

How the results depend on the processing

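The 4 ratios of the members' sums stayed within their counting intervals under every alternative run (scaling, members with an event in all 4 libraries, and leaving out the members of other main roles, the 5 richest members or BCL2L13, the last chosen after seeing the data). The numbers of members at least 2-fold apart were the same with a pseudocount of 0.5. For whole numbers both pseudocounts select the same members, so this is no check of the counts. Scaled to the same library total, the lower members in A8i vs. A8 were 7 in place of 16, the higher members in A8i-B vs. A8i were 5 in place of 17, and the lower members in A8i-A vs. A8i-B were 6 in place of 15. Of the members lost in these 3 sets, 6 of 9, 8 of 12 and 8 of 9 had 1 event against 0. With only genes of at least 4 events in all, the higher and lower members were 4 and 9 for A8i vs. A8, 9 and 7 when A8i-A was set against A8i, 11 and 2 for A8i-B vs. A8i, and 2 and 9 for A8i-A vs. A8i-B, as fewer genes enter. A difference of at least 2 events gave 10 lower members in A8i vs. A8 and 9 in A8i-A vs. A8i-B. Shares of all genes are not given for the scaled numbers and these other rules. Whether the changes in number are particular to the members can therefore not be read from them. At least 2 events were listed for 32 members in A8 and 25 in A8i, and for 29 in A8i-A and 34 in A8i-B. Of the 40 differences of single members, 8 fell under 2-fold with scaling. Those of BIRC5 in both of its pairs were among them (log2 ratios of -0.78 and 0.88). None could change direction, since all were picked as at least 2-fold apart and the library totals differ by far less. BCL2L12 and BCL2L13 together held 62.5% of their A8i events in A8i-A. Without BCL2L13 only BCL2L12 is left, with 7 events in A8i-A against 4 in A8i, or 175% (44.5–815%). No paired analysis was possible because each line has 1 library. Sequencing depth cannot be read from these numbers, and 1 to 3 events per gene leave most differences within counting error.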
